A study of Homo sapiens with 2 samples.

Results

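The GAGE genes form a tandem family of cancer-testis antigens on the X chromosome, and the peaks described here are those that fall in their cluster in RNA recovered with the transcription factor GATA2. Members were the peaks of the deposited list whose midpoint lay on hg19 chromosome X between 49155000 and 49410000, an interval of 255 kb. The interval was chosen by the positions of peaks in this same list, so the number and the crowding of peaks in it are a description. It held 18 of the 2692 peaks of the list and 18 of the 119 on chromosome X (15.1%). Only peaks from 1 library were at hand, no annotation of hg19 was used, and no peak could therefore be given to a single GAGE gene.

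The library was 1 HA immunoprecipitate from K562 cells with a GATA2 transgene. K562 is an established human line of chronic myelogenous leukaemia, kept as a suspension culture. A further library, 1 input, came from the same cells, and its values were not analysed here. Both groups carried the transgene. Doxycycline (1 µg/mL) was present for 5 hours and 4-thiouridine (100 µM), a nucleoside that lets RNA crosslink under long-wave light, for 24 hours. Crosslinking was at 365 nm (0.3 J/cm2). The labels call the assay a modified seCLIP: RNase trims the RNA, an antibody pulls down the tagged protein, and the RNA fixed to it is sequenced. Without replicates no test was made, and the depth behind a peak is unknown.

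Cancer-testis antigens are proteins made in male germ cells, silent in most adult tissues and switched on again in some tumours, where T cells can recognise fragments of them. The GAGE genes encode small acidic proteins that differ from one another at few residues, and each gene lies in its own copy of a repeated DNA unit. Loss of promoter methylation is a known step in the activation of this family. GATA2 is a zinc finger factor of blood stem and progenitor cells that binds DNA at sites with the core letters GATA.

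Of the 9 GAGE genes named for the cluster, 7 were found in the RefSeq table of GRCh38.p14, which served for names, neighbours and promoter sequences only. GAGE2D and GAGE2E were not matched. The table listed 12 GAGE genes. In chromosome order they were GAGE10, GAGE12J, GAGE13, GAGE12B, GAGE12C, GAGE12D, GAGE12E, GAGE12F, GAGE12G, GAGE12H, GAGE2A and GAGE1. Between the first and the last of them lay 1 other gene, LOC124905188. The neighbours outside were PPP1R3F on the GAGE10 side and the pseudogenes VDAC1P2 and SALL1P1 and the related antigen genes PAGE1 and PAGE4 on the GAGE1 side.

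The sequences below show how alike 2 promoters of the family are, and the sequences under the peaks were not read. Each is the 250 bases before an annotated start in RefSeq, printed 5′ to 3′ on the plus strand of GRCh38.p14. GAGE2A lies at chrX:49589246-49589495, with the letters TATC, which read GATA on the other strand, in capitals. GAGE10 lies at chrX:49303396-49303645, with the bases that differ from GAGE2A in the alignment in capitals. These positions are on another build than the peaks and cannot be set beside them.
GAGE2A: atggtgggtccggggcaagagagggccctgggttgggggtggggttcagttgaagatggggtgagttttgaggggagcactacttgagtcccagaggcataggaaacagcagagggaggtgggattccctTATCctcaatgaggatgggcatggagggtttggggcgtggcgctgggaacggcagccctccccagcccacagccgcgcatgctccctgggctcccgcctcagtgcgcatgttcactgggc
GAGE10: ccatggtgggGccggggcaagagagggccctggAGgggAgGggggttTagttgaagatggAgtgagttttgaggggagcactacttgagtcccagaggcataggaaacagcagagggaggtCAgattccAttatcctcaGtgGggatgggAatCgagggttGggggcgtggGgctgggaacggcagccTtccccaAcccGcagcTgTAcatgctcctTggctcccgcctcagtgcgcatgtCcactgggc

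GAGE10 stood apart from the other promoters of the family. Over 250 aligned positions it differed from GAGE2A at 24 bases and at 2 gap letters, which the capitals do not show. The identity, with the gaps counted as differences, was 89.6%. Over windows of 300 bases, 250 before and 50 after the start, the 12 pairs with GAGE10 had identities of 88.7% to 89.3%. The 65 pairs among the other promoters had identities of 99.6% to 100% and differed by 0 or 1 base, apart from shifts in the annotated start. The window was the same to the letter for 8 promoters, those of GAGE12J, GAGE12C, GAGE12D, GAGE12E, GAGE12F, GAGE12H, GAGE2A and 1 of the 2 annotated starts of GAGE1.

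Short stretches of these promoters, GAGE10 apart, were therefore rarely unique. For GAGE2A, all 251 stretches of 50 bases (100%) recurred without a change in the promoters of other GAGE genes, each in 7 to 12 promoter windows. For GAGE10, 11 of 251 such stretches did (4.4%). Among 11 related PAGE and XAGE genes, stretches of 30 bases shared with a GAGE promoter were found in 2, XAGE1A and XAGE1B, with 1 stretch each. These counts concern promoters, and the sequences under the peaks were not read.

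The letters GATA were present in all 13 GAGE promoter windows, on the minus strand, and in 49.7% of the 35116 promoter windows of the same length. The site in each GAGE window read GGATAA, a run of letters that includes GATA and was present, on either strand, in 6.84% of all windows. This run was read from the GAGE windows themselves. Apart from GAGE10 the windows are near copies of one another, so the 13 are not independent counts. The 4 forms most often given for GATA factors, AGATAA and its variant AGATAG as well as TGATAA and its variant TGATAG, were in 0 of 13 GAGE windows on either strand and in 25.0% of all windows. These are matches of letters only. The GAGE windows held 11 to 13 CG pairs, against a median of 14 over all windows (quartiles 4 and 28).

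The peaks lay in 2 stretches, separated by 70.3 kb from 49226506 to 49296784 in which no peak was listed. The first stretch held 7 peaks over 46.8 kb and the second held 11 peaks over 101 kb. Whether hg19 has sequence throughout the space between them was not tested. Scores below are the authors' values per peak, on a scale the list does not state, with 50 as the lowest value of the list.

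**Figure D1:**
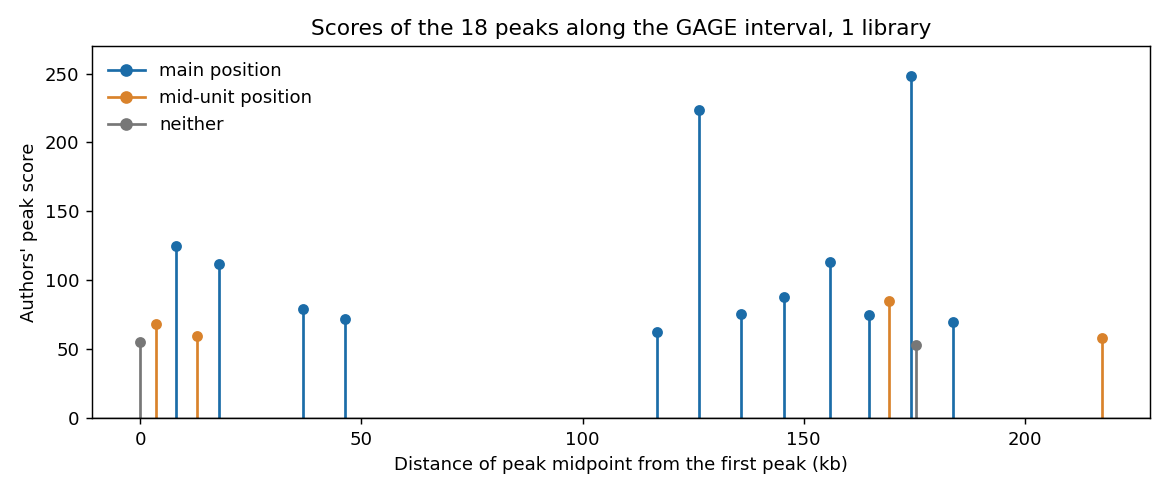
Authors' score of each of the 18 peaks (vertical axis) against the distance of its midpoint from the first peak in kb (horizontal axis), 1 library; colours mark the position of a peak within the repeat unit. The 2 highest scores, 223.56 and 248.10, lie in the second stretch, and no peak lies in the 70.3 kb between the stretches.

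Within each stretch a ruler with the unit length of the cluster could be placed so that many peaks lay near its marks. To compare units, midpoints were laid on a ruler of 9.6 kb, the unit length given for the cluster, starting from the first peak of the largest set that kept step in each stretch. Of the 18 peaks, 12 fell at this main position, at -360 to 597.5 bp from it. A further 4 fell near the middle of the unit, 4397 to 4903 bp after the main position. The remaining 2 lay 884.5 and 1436.5 bp after it. The ruler and the 3 classes were set after the positions were seen. In each stretch the starting peak was the one that put most peaks within 700 bp, so the 12 were partly set by that choice. No repeat sequence was read, so whether the peaks keep step with the repeat itself was not tested. Distances between pairs of peaks need no starting peak. In the first stretch 7 of 21 pairs lay within 0.1 unit of a whole number of units. More, 8 of 21, lay as near to the middle between whole numbers. In the second stretch these counts were 33 and 15 of 55. Each stretch had its own starting peak, so a position may not be the same place in the repeat in both. Counts and medians of a class pool the stretches under this limit.

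**Figure D2:**
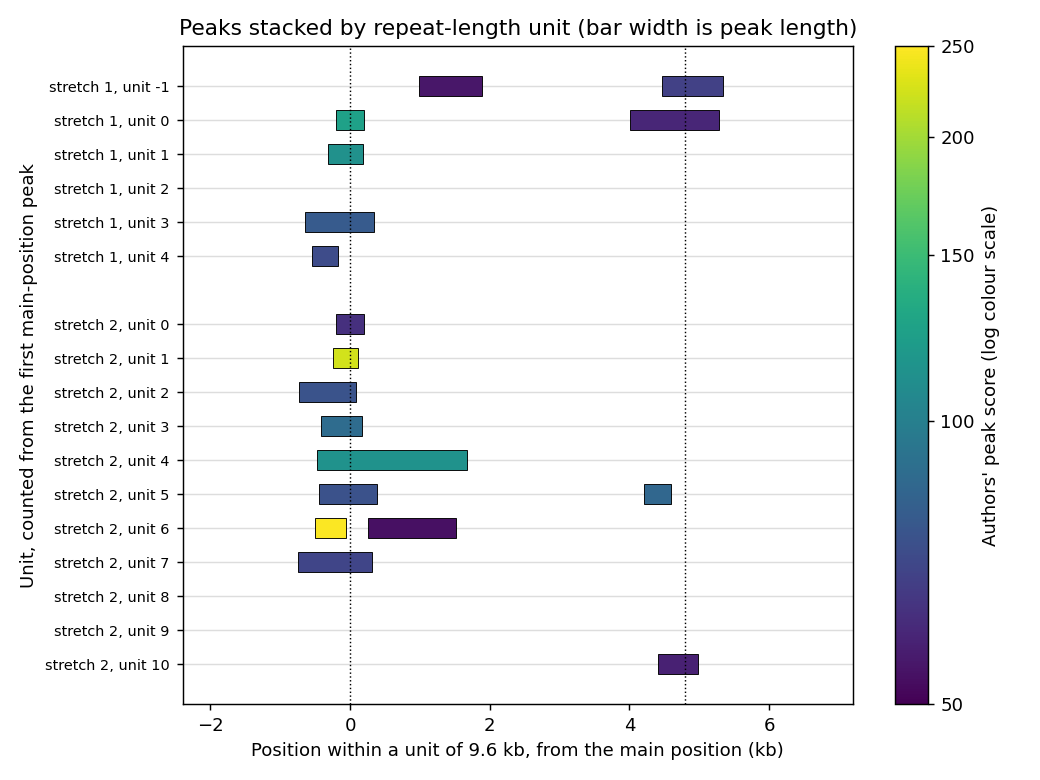
Peaks of each stretch cut into units of 9.6 kb and stacked (rows), with the distance from the main position in kb on the horizontal axis, bar width as peak length and colour as the authors' score on a log scale. Each stretch is on its own ruler, set from one of its own peaks. Bars gather at 0 in 12 units and near 4.8 kb in 4 units, and 3 units inside the stretches are empty.

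In the second stretch 8 consecutive units each had a main-position peak. In order, they ran from 49296785 to 49297186 (402 bp, score 62.37), from 49306341 to 49306704 (364 bp, score 223.56) and from 49315447 to 49316262 (816 bp, score 75.61). The next 3 ran from 49325363 to 49325952 (590 bp, score 87.84), from 49334914 to 49337052 (2139 bp, score 113.61) and from 49344543 to 49345366 (824 bp, score 75.16). The last pair ran from 49354088 to 49354527 (440 bp, score 248.10) and from 49363441 to 49364499 (1059 bp, score 69.53). Position recurred in this row of 8 because its members were chosen by position, whereas score and length varied. The scores differed by 3.98-fold from the lowest to the highest, and the lengths ranged from 364 to 2139 bp.

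Peaks entered this row because their midpoints lay within 700 bp of the ruler. A spacing near 1 unit was therefore largely set by that choice, and the values below describe the scatter around it. The 7 successive spacings of the starts had a median of 9551 bp (SD 249 bp, range 9106 to 9916 bp). The spacings of the midpoints had a median of 9537 bp (SD 428 bp, range 8971.5 to 10325.5 bp), and those of the ends a median of 9558 bp (SD 842 bp). The longest peak, of 2139 bp, began 9551 bp after the start of its predecessor and extended further to the right than the others, and its midpoint was the farthest of the 12 from the main position. Without it, 5 spacings remained, with an SD of 201 bp at midpoints, 298 bp at starts and 294 bp at ends, so the order of the SDs rested on this peak. Spacings that share a peak are not independent of each other.

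In the first stretch 4 units had a main-position peak. They ran from 49188080 to 49188488 (409 bp, score 124.67), from 49197568 to 49198070 (503 bp, score 111.94), from 49216433 to 49217430 (998 bp, score 78.95) and from 49226143 to 49226505 (363 bp, score 72.10). The midpoints of the second and the third of these were 19112.5 bp apart, 1.99 units, and the unit between them had no peak. From the last of the 4 to the first main-position peak of the second stretch the listed distance was 70661.5 bp, or 7.36 units of fixed length. Whether hg19 has sequence throughout this distance was not tested, so the step between the 2 stretches is not known. With the peaks of each stretch set on its own ruler, the 12 main-position peaks overlapped one another over 22.5 bp. On a ruler of 9548 bp, the median spacing of starts of these same peaks, the overlap was 212.5 bp. Each ruler started at a peak of its own stretch and the class kept midpoints within 700 bp of it. That choice favoured an overlap, so its presence is no sign of a place shared by the 2 stretches.

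Mid-unit peaks were found in both stretches, each on its own ruler. Whether they mark the same place in the repeat in both is not known. They ran from 49183148 to 49184026 (879 bp, score 68.39), from 49192297 to 49193569 (1273 bp, score 59.59), from 49349192 to 49349573 (382 bp, score 85.26) and from 49397392 to 49397969 (578 bp, score 57.90). The first 3 preceded the next main-position peak by 4697, 4886 and 4925 bp. The fourth lay beyond the last main-position peak by 33710.5 bp, which is 3.51 units. Scores at the mid-unit position reached at most 85.26, with a median of 64.0, and those at the main position had a median of 83.4 and ran from 62.37 to 248.10, so the 2 sets overlapped.

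The remaining 2 peaks were low in score. Both were longer than the list median of 851 bp, but the main and mid-unit classes also held longer peaks, up to 2139 and 1273 bp. The first peak of the interval, from 49179668 to 49180573, was 906 bp long with a score of 55.19. The other, from 49354841 to 49356099, was 1259 bp long with a score of 53.42, the lowest of the 18. It began 313 bp after the end of the peak with the highest score, and these 2 were the only members with a neighbour within 1000 bp. Over the whole list 5.27% of peaks had such a neighbour.

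Units without a peak were counted in each stretch. Of 17 units from the first to the last peak of each stretch, 14 had a peak, 12 had one at the main position, and 3 had none. The empty ones were 1 unit inside the first stretch and 2 successive units in the second, before its last peak. On a ruler of 9463.75 bp laid from the start of the interval, without regard to the stretches, 13 of 26 units had a peak and 13 had none. The units without a peak included those of the 70.3 kb between the stretches, which is 7.32 unit lengths. Whether hg19 has sequence there was not tested, so these may not all be units of the cluster.

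A neighbour 1 unit away was common among these peaks, which were chosen for where they lie. Another peak lay within 600 bp of the distance of 9600 bp, midpoint to midpoint, for 13 of the 18 members, against 3.79% of all 2692 peaks and 0 of the 101 other peaks of chromosome X. The 8 pairs of members in this range had a median spacing of 9463.75 bp (range 9332 to 9803 bp). In the second stretch 33 of 55 pairs of peaks (60%) lay within 0.1 unit of a whole number of units. A further 15 of 55 lay within 0.1 unit of the middle between whole numbers. Each window takes in 20% of evenly spread distances. Pairs that share a peak are not independent, and the interval was chosen as a repeat of this unit, so the 20% is a scale and no test. In the first stretch 7 of 21 pairs (33.3%) lay near a whole number, and 8 of 21 lay within 0.1 unit of the middle between whole numbers. Across the 2 stretches 3 of 77 lay near a whole number, over a space whose sequence in hg19 was not checked.

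**Figure D3:**
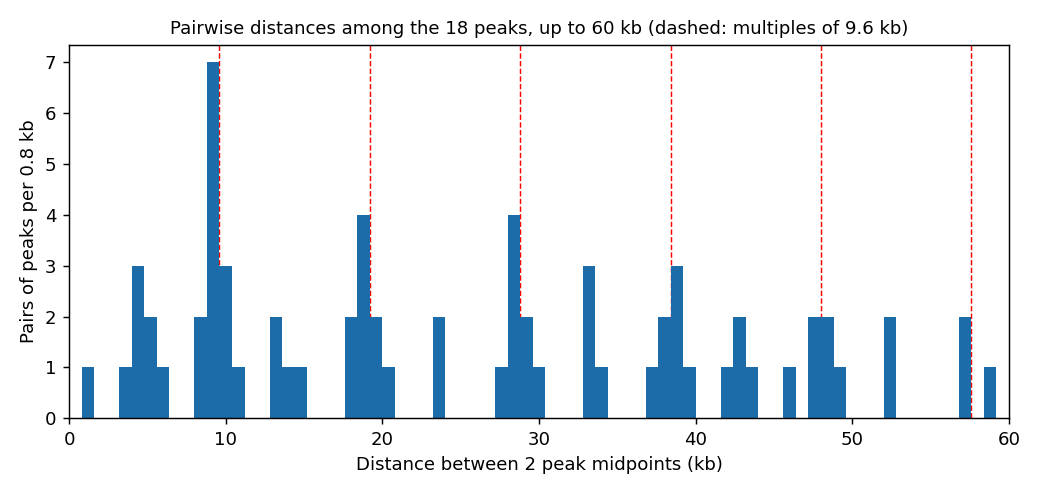
Number of pairs of peaks (vertical axis, bins of 0.8 kb) by the distance between their midpoints in kb (horizontal axis), for the 18 peaks and distances up to 60 kb, with dashed lines at multiples of 9.6 kb. Pairs gather near the dashed lines, and smaller groups lie between them.

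Scores in the cluster were moderate apart from a pair of peaks. The median of the 18 scores was 75.4 (range 53.42 to 248.10), against a median of 65.9 in the whole list and 68.7 in the 101 other peaks of chromosome X. A score above the median of the list was reached by 13 of 18 members, where 50% of all peaks do so by definition. A score above 100 was reached by 5 members, against 16% of all peaks, and a score above 200 by 2, against 2.53%. The 2 were the peaks with scores of 248.10 and 223.56, which ranked 22 and 38 in the list. Their midpoints were 47785 bp apart, or 4.98 units, and the main-position peaks of the 4 units between them scored 75.16 to 113.61.

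The members were somewhat shorter than the list as a whole. Their median length was 703 bp (range 363 to 2139 bp), against 851 bp in the whole list and 749 bp in the rest of chromosome X. A length under 500 bp was found in 6 of 18, against 24.1% of all peaks. Of the 6 members under 500 bp, 3 scored above 100, and of the 12 longer ones 2 did, the peaks of 503 and 2139 bp. In the whole list 18.5% of peaks under 500 bp and 15.2% of longer ones scored above 100. Across the 18 members length and score had a Spearman rho of -0.39, against -0.01 across the whole list, given as a description since members share the library and the repeat.

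**Figure D4:**
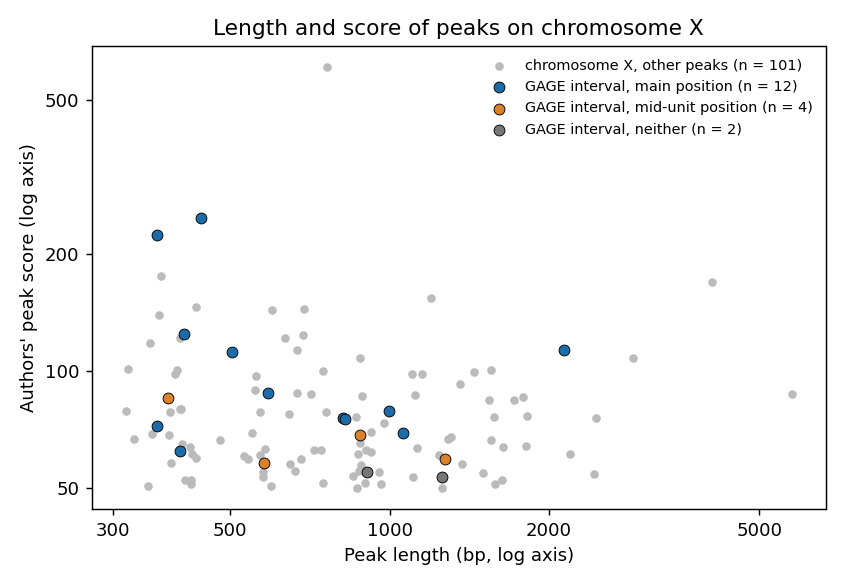
Authors' score (vertical log axis) against peak length in bp (horizontal log axis) for the 18 peaks of the GAGE interval, coloured by position within the unit, and the 101 other peaks of chromosome X in grey. The 2 members above a score of 200 are under 500 bp long, and the other members lie within the cloud of grey points.

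The flanks were nearly empty. The interval had 70.6 peaks per Mb (95% exact Poisson interval 41.8 to 112), whereas the 1 Mb on each side had 1 peak in 2 Mb together, or 0.5 per Mb (0.0127 to 2.79). The ratio of 141 had a 95% exact interval of 22.3 to 5882. These intervals cover counting error only and take no account of the choice of the interval. The rest of chromosome X, from its first to its last peak, had 0.661 peaks per Mb. Peaks covered 5.56% of the interval and 0.0645% of the rest of that span.

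The only peak in the flanks was on the left, from 48634574 to 48635477, with a length of 904 bp and a score of 62.76. It lay 545 kb from the first member, and its length and score were within the range of the members. On the right the next peak began at 52511906, and its midpoint was 3.11 Mb from that of the last member. The edges of the interval were not crossed, since the first and last members lay 25.1 kb and 12.3 kb inside it.

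An evenly spaced run elsewhere in the list gave a scale for the regularity of the GAGE peaks. On chromosome 1, 14 successive peaks were 2241.5 bp apart at the median (SD 30.8 bp), a coefficient of variation of 1.38%. The 8 main-position peaks of the second GAGE stretch had a coefficient of variation of 4.47% at midpoints and 2.61% at starts. Without the peak of 2139 bp these were 2.11% and 3.14%. Scores in the run on chromosome 1 differed by 1.37-fold from lowest to highest, against 3.98-fold in the GAGE row, and its lengths ranged from 393 to 543 bp. Both sets were picked for their spacing, and the differences between them were not tested.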

How the data were processed

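The submitters' processing notes name the build hg19 and, without saying what each did, bedtools, SAMtools, Bowtie2, UMI-tools 1.0.0 and cutadapt. The deposited list gives the start, the end and the authors' score of each peak of 1 immunoprecipitate, without strand or read counts. Peak names start with MACS, a peak caller. Its version, threshold and control, and what was done with reads that align equally well to several copies, are not stated in the labels or the file. How their handling bears on these peaks was not tested.

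Positions were written counted from 1. Spacings, units of 9600 bp, densities and exact Poisson and binomial intervals (95%) were computed with Python 3.11.15, numpy 2.4.6, pandas 2.3.3 and scipy 1.17.1. The code for pair spacings and for units on a ruler laid from the start of the interval was first tried on made-up positions. The code that set the main and mid-unit positions was not. Promoters were aligned pairwise with Biopython 1.88 (global, match 1, mismatch -1, gap opening -3, gap extension -0.5, free end gaps). The main position allowed 700 bp and the mid-unit position 500 bp around 4800 bp. Members, classes and lists were chosen with earlier results of these data known. Named genes were all GAGE, PAGE and XAGE genes fixed for the family, and every peak of the interval was described. Sequences of proteins were not used here.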

Additional observations from a re-analysis of the deposited data

How the results depend on the processing

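Counts stayed within 1.5 times in every alternative, the interval stayed denser than the flanks, and differences in score and length kept their sign. Several alternatives could hardly come out otherwise. Dropping 2 of 18 peaks leaves 16, and spacings were taken only from pairs already near 1 unit. The peak number was 18 by any overlap, 13 with the 1346 higher scoring peaks, 17 after merging within 1000 bp and 16 without the 2 highest scores. The median spacing ran from 9463.75 to 9550.5 bp, and the units without a peak from 12 to 16. The median score of members was 12.6 above the flanking peak and 6.73 above the rest of chromosome X, and their median length was -201 bp and -46 bp from those, so the sizes of these differences depended on the peaks compared. The 95% intervals of the members' medians, 62.37 to 111.94 for score and 409 to 998 bp for length, included the medians they were compared with. These intervals treat peaks of 1 library as independent draws, which they are not, and are no test. Flanks of 1 Mb and of 2 Mb held the same 1 peak, so score and length could not move between them. With flanks of 2 Mb the density ratio was 282. With flanks of 0.5 Mb there was no flanking peak, so that ratio, score and length had no value, and the 95% upper limit of their density was 3.69 peaks per Mb. The higher scoring peaks also left no peak in the flanks, so that no ratio was computed. The classes by position within the unit and the alternatives without the highest scores, without the longest member, from peak starts and against the rest of chromosome X were chosen after seeing the data. The width over which the main-position peaks overlapped depended on the unit length, and the cause was not tested. The depth is unknown, and with 1 library there is no replicate spread. No paired analysis was possible because there is only 1 library in a group.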

Other observations

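The next 4 peaks of chromosome X to the right of the GAGE cluster lay over 34.1 kb, with scores from 53.28 to 121.98. The number 4 was a choice of the listing, and whether these peaks stand apart from those after them was not examined. Of these, the peaks from 52532589 to 52533158 and from 52545483 to 52546052 were both 570 bp long. No gene was assigned to them.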
